A study of Mus musculus with 15 samples.

Results

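The genes described here are 35 genes of cholesterol and fatty acid synthesis, followed in the uterus of ovariectomized mice after estradiol (E2) or estriol (E3). They were chosen by name, with earlier results of these data known, and fall into 19 enzymes of the sterol branch, 10 genes of the fatty acid branch, and 6 regulators and sterol carriers. Their names were matched to the gene names printed on the array, where 71 of 41174 probes carry them (Me1 under the older name Mod1), and each gene was read from its brightest probe. All 35 passed the filter on dim probes, and all 35 were well above background on each of the 15 arrays.

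Uterine RNA of adult females, 10 or more weeks old, was measured on 15 one-color Agilent arrays, with 3 arrays in each of 5 groups. Mice were ovariectomized, rested 10 to 14 days, and injected with saline vehicle or with 250 ng of either estrogen in 100 μl saline. The groups were saline collected at 24 hr, E2 at 2 hr, E3 at 2 hr, E2 at 24 hr, and E3 at 24 hr. The mice of the saline, both E3, and the E2 24 hr groups carry the strain label C57bl6/J, whereas those of the E2 2 hr group carry the strain label C57bl6/Jx129 and are labeled WT for Esr1, with no genotype given for the others. The E2 2 hr arrays were also read on another scanner, on another day, and on slides of their own, so that strain, scanner, slide, and treatment cannot be told apart in that group. No saline array of 2 hr was analysed here, and the 24 hr saline arrays serve as the control at both times. The labels say that each uterus was homogenized singly, whereas the methods of the study describe RNA from pooled uteri without naming the arrays concerned.

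Cells make cholesterol from acetyl-CoA through mevalonate, farnesyl diphosphate, squalene, and lanosterol, and side branches of the same route give prenyl groups and ubiquinone. Fatty acids are built from the same acetyl-CoA by Acaca and Fasn and are then elongated and desaturated. The transcription factors encoded by Srebf2 and Srebf1 drive both routes when membranes are short of sterol. Scap escorts them from the endoplasmic reticulum and the Insig proteins hold them there. Estrogen makes the uterine epithelium and stroma of an ovariectomized mouse swell within hours and the epithelium divide within about a day.

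Levels are log2 values of the processed spot intensity relative to the 75th percentile of the array, so that 0 is the brightness of that percentile. A gene was called when limma's p-value was below 0.001 and the change at least 2-fold, and adjusted p-values are Benjamini-Hochberg values over all tested probes. The arrays had 77.7% to 81.6% of probes well above background. The uterine transcripts Hoxa10, Hoxa11, Esr1, and Pgr were well above background on all arrays except for 1 of the 4 on 1 E2 24 hr array. Transcripts of other tissues varied between arrays. The summed level of 8 liver transcripts was 6.94 to 22.6 on the saline arrays and 0.505 to 4.18 on all others, and that of 6 pancreatic transcripts was 204 on E2 24 hr replicate 2 and 425 on E3 2 hr replicate 2 against 0.212 to 9.13 on the other 13 arrays. At 2 hr 7 of the 8 liver transcripts were called lower than saline with E2 (10.5% of all probes) and 2 with E3 (9.1%). At 24 hr 7 were called lower with E2 (11.2%) and 7 with E3 (1.98%). The part of other tissues in the differences from saline was not tested.

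At 24 hr, E2 was followed by higher levels along most of the sterol branch. Of 19 enzymes, 15 were called higher and 0 lower, with a median log2 difference from saline of 1.54. In the fatty acid branch 2 of 10 genes were called higher, Elovl6 and Fads2, with a median of 0.72. Among the regulators and carriers 2 of 6 were called higher, Insig1 and Stard4, with a median of 0.67. Over all tested probes the median was -0.07, and 6.92% were called higher. In RNA of whole tissue, more cells of a type and more RNA per cell cannot be told apart. The saline arrays and the 24 hr arrays of either compound had no slide in common, so that slide and treatment cannot be told apart in these comparisons. The largest rises belonged to Fdps, Idi1, Sqle, Mvd, Cyp51, Mvk, and Sc4mol, which lie between mevalonate and the demethylated sterols.

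Fdps makes farnesyl diphosphate, the last intermediate shared by sterols and prenyl groups. Its log2 levels were 0.67, 0.72, and 0.57 on the saline arrays, 2.10, 2.44, and 2.00 with E3 at 24 hr, and 3.73, 3.83, and 3.94 with E2 at 24 hr. The E3 arrays stood above all saline arrays and below all E2 arrays. E2 raised Fdps 9.08-fold over saline (log2 difference 3.18 ± 0.13 SE, n = 3 and 3, limma adjusted p = 3.92e-08), and E3 raised it 2.89-fold (1.53 ± 0.13, limma adjusted p = 3.45e-05).

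Idi1 interconverts the isoprenoid building blocks upstream of Fdps. Its levels were -0.17, 0.25, and 0.04 on saline arrays, 1.58, 1.88, and 1.02 with E3 at 24 hr, and 3.13, 3.03, and 3.32 with E2 at 24 hr. The 3 groups did not overlap. The rise was 8.69-fold with E2 (3.12 ± 0.21, limma adjusted p = 4.55e-07) and 2.75-fold with E3 (1.46 ± 0.21, limma adjusted p = 0.000493).

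Sqle oxidizes squalene, the step at which oxygen enters the pathway. It was at -0.23, -0.22, and -0.08 with saline, at 0.92, 1.52, and 0.38 with E3 at 24 hr, and at 2.53, 2.77, and 2.89 with E2 at 24 hr. The groups again did not overlap, but the E3 arrays spread over more than a log2 unit. E2 raised Sqle 7.48-fold (2.90 ± 0.25, limma adjusted p = 1.71e-06). The 2.17-fold rise with E3 (1.11 ± 0.25, limma adjusted p = 0.00479) lay close to the p-value limit and was lost when any of 11 of the 15 arrays was left out.

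Mvd, which makes isopentenyl diphosphate from mevalonate diphosphate, had levels of -1.89, -1.21, and -2.04 with saline, -0.43, -0.19, and -0.36 with E3 at 24 hr, and 1.10, 1.18, and 1.21 with E2 at 24 hr. The treated arrays were tight and the saline arrays were not, with replicate 2 the highest of them. The change was 7.35-fold with E2 (2.88 ± 0.21) and 2.61-fold with E3 (1.39 ± 0.21).

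Cyp51 removes a methyl group from lanosterol. It stood at -2.29, -2.37, and -2.20 with saline, at -0.94, -0.79, and -1.46 with E3 at 24 hr, and at 0.06, 0.02, and 0.17 with E2 at 24 hr. The log2 difference from saline was 2.37 ± 0.16 with E2 and 1.22 ± 0.16 with E3, and the 3 groups did not overlap at 24 hr, although E3 replicate 3 lay within the range of the 2 hr arrays.

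Mvk phosphorylates mevalonate and Pmvk phosphorylates its product. Mvk was at -1.49, -1.33, and -1.45 with saline, at -0.34, -0.03, and -0.71 with E3, and at 0.65, 0.93, and 0.91 with E2, all at 24 hr, and the groups did not overlap. Mvk was 4.77-fold higher with E2 (2.25 ± 0.17) and 2.09-fold higher with E3 (1.06 ± 0.17, limma adjusted p = 0.000702). The E3 rise went under 2-fold without E3 24 hr replicate 2 (0.90) and without scaling (0.99), and was not called with only the compared groups fitted. Pmvk rose less with E2 (1.13 ± 0.08, and 0.92 and not called with quantile normalization), and its E3 difference of 0.71 ± 0.08 was under the 2-fold limit.

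The other enzymes called with E2 at 24 hr were Hmgcs1, which makes the HMG-CoA from which mevalonate is formed (1.54 ± 0.14), Fdft1, squalene synthase (1.58 ± 0.15), Tm7sf2, a sterol reductase (1.53 ± 0.11), Sc4mol, the sterol methyl oxidase now named Msmo1 (2.16 ± 0.19), Nsdhl, a sterol dehydrogenase (1.72 ± 0.19), Hsd17b7, the ketosterol reductase (1.28 ± 0.18), Sc5d, the sterol desaturase (1.34 ± 0.25), and Dhcr7, the last reductase of the route (1.35 ± 0.16). Tm7sf2 was the member of this set whose E3 change at 24 hr came nearest to its E2 change, with levels of 1.67, 1.69, and 1.43 with E3 against 1.86, 2.12, and 1.91 with E2 and 0.43, 0.36, and 0.49 with saline. The E3 arrays of Tm7sf2 lay below the E2 arrays and far above saline, by 1.17 ± 0.11. Over the branch, 15 of 19 enzymes had every E3 array above every saline array and below every E2 array at 24 hr, against 2 of 10 fatty acid genes (Elovl6 and Fads2), 2 of 6 regulators (Srebf2 and Scap), and 9.4% of all probes.

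**Figure D1:**
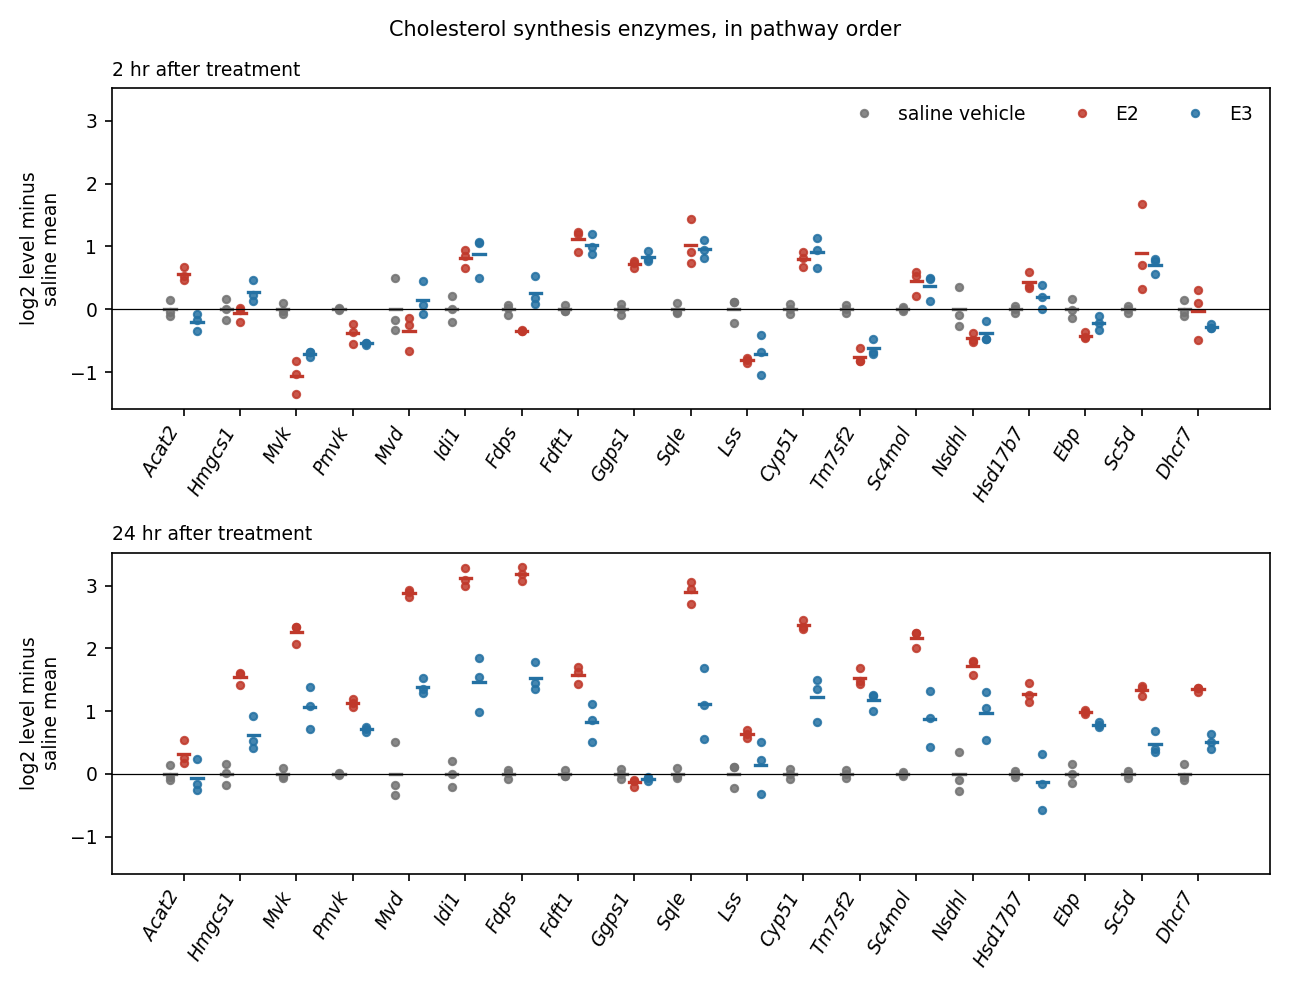
Log2 level minus the saline mean (vertical axis) of the 19 sterol branch enzymes in pathway order (horizontal axis) at 2 hr (top) and 24 hr (bottom). Dots are single arrays, 3 per group, and bars are group means, with the same 24 hr saline arrays in both panels. At 24 hr most enzymes step up from saline to E3 to E2, led by Fdps at 3.18 and Idi1 at 3.12 with E2, while at 2 hr the enzymes lie on both sides of 0.

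The sterol enzymes not called with E2 at 24 hr were Acat2, Ggps1, Lss, and Ebp. Ebp, a sterol isomerase, was at 3.85, 3.69, and 3.55 with saline and at 4.71, 4.67, and 4.65 with E2, a difference of 0.98 ± 0.09 (limma adjusted p = 2.23e-06) that fell just short of 2-fold. Acat2, which condenses acetyl-CoA at the entry of the route, differed by 0.32 ± 0.14 (95% interval 0.01 to 0.63). Ggps1 turns farnesyl diphosphate toward longer prenyl groups rather than sterols. It was at -0.29, -0.45, and -0.37 with saline and at -0.48, -0.57, and -0.46 with E2, all E2 arrays below the saline arrays by a margin of under 0.1, with a difference of -0.13 ± 0.07 (95% interval -0.29 to 0.02). Across the 15 arrays its level ran against the mean of the other sterol enzymes (Pearson r = -0.58), whereas Sc4mol had r = 0.99 and Idi1 had r = 0.97. These correlations describe arrays that share groups and slides.

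Lss, which closes squalene epoxide into lanosterol, depended on the probe. Its brightest probe differed by 0.64 ± 0.20 with E2 at 24 hr, under the limit, but its other probes A_52_P168028 and A_51_P296487 rose by 2.35 ± 0.17 and 2.42 ± 0.16 and were called. The calls of Sc5d and Fdft1 rested on the brightest probe, with second probes at 0.48 ± 0.17 and 1.02 ± 0.39 that were not called. Over the genes called with E2 at 24 hr, 18 other probes were tested, of which 18 differed in the same direction and 14 were also called.

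Insig1, which retains the SREBP precursors and is itself a sterol-responsive gene, was at -2.60, -2.62, and -2.43 with saline, at -2.20, -1.94, and -2.59 with E3, and at -1.60, -1.44, and -1.49 with E2. The E2 arrays were apart from the rest, and the E3 arrays overlapped saline. The E2 rise of 1.04 ± 0.15 (limma adjusted p = 8.13e-05) sat at the 2-fold limit, and went under it with normexp background correction (0.98) and with the percentile taken over probes detected on all arrays (0.99). Insig2, its paralog, went the other way. It was at 1.93, 1.83, and 1.88 with saline and at 1.43, 1.16, and 1.33 with E2, a difference of -0.58 ± 0.10 that was under 2-fold (limma adjusted p = 0.000282), and with E3 it was at 1.91, 1.73, and 1.83.

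Srebf2, the transcription factor most tied to the sterol enzymes, had levels of 3.24, 3.13, and 3.23 with saline, 3.60, 3.87, and 3.48 with E3, and from 3.97 to 4.03 with E2 at 24 hr. The groups did not overlap, and the differences of 0.80 ± 0.10 with E2 and 0.45 ± 0.10 with E3 were under 2-fold. The other 3 probes of Srebf2 rose by 1.38, 1.64, and 1.77 with E2 and were called. Srebf1, which favours fatty acid genes, differed by 0.53 ± 0.15 with E2 and 0.14 ± 0.15 with E3, and Scap by 0.47 ± 0.08 and 0.31 ± 0.08, none of them past 2-fold. Stard4 carries cholesterol between membranes. It was at -0.03, 0.20, and 0.14 with saline and at 1.21, 1.20, and 1.47 with E2 at 24 hr, a rise of 1.19 ± 0.19, and its other probes gave 2.55 ± 0.16 and 2.47 ± 0.18.

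The sequences upstream of the members were read, whether or not a gene was called. RefSeq promoters of assembly GRCm38.p6 were matched by symbol for 28 of the 35 members (Fdps, Fdft1, Sqle, Scd1, Scd2, Fads1, and Stard4 had none), and the 250 bases before each start were searched on both strands. CCAAT, the letters bound by NF-Y, occurred in 15 of 16 sterol enzymes, 3 of 7 fatty acid genes, and 4 of 5 regulators, against 37.5% of all 27025 genes and 33.8% of all 32851 promoters. GGGCGG, the letters bound by Sp1, occurred in 14 of 16, 4 of 7, and 5 of 5, against 35.4% of genes. A form of the sterol regulatory element, TCACNCCAC, occurred in 1 of 28 members (Hmgcs1) against 1.22% of genes and the palindromic estrogen response element in 0 of 28 against 0.0666% of genes. No match of a motif can be a match of another of them, and a match describes letters and not a binding site. No test was made, and where a gene has several starts a match at any of them was counted.

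The promoters shown are of Hmgcs1, the member with the sterol element, Mvk, the member with the most CCAAT matches (5), Idi1, the largest E2 rise with a promoter entry, Hsd17b7, called with E2 and not with E3 at 24 hr, and Ggps1, not called at 24 hr. Their positions in GRCm38.p6 are chr13:119690101-119690350 on the + strand, chr5:114444019-114444268 on the + strand, chr13:8885356-8885605 on the + strand, chr1:169969206-169969455 on the - strand, and chr13:14063489-14063738 on the - strand. Each is written 5′ to 3′ on the gene's strand and ends at the base before the annotated start, with CCAAT or its complement ATTGG in capitals, as well as the sterol element of Hmgcs1, which begins 137 bases before the start.
Hmgcs1: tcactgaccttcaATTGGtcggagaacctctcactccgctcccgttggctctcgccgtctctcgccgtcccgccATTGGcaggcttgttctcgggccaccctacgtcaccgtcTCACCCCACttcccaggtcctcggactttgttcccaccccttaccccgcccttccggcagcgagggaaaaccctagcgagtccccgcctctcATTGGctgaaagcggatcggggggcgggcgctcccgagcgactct
Mvk: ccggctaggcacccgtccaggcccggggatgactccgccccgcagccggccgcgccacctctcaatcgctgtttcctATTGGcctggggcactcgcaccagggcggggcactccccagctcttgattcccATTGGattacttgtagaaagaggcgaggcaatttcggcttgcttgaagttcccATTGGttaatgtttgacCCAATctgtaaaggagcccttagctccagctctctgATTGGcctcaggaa
Idi1: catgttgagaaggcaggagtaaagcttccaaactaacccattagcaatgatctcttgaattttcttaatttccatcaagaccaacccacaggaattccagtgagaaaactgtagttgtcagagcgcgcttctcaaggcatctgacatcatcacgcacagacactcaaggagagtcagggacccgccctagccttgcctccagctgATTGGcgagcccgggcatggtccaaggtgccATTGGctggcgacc
Hsd17b7: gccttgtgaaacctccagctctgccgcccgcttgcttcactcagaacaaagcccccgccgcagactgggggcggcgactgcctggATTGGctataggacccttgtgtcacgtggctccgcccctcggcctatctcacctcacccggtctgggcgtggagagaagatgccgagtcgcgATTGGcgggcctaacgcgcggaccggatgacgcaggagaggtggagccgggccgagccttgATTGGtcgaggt
Ggps1: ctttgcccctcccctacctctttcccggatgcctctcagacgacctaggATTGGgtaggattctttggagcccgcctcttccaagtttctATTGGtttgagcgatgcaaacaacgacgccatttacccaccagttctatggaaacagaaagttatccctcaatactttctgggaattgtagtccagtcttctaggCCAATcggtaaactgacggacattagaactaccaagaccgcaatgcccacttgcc

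The fatty acid branch had fewer calls and smaller differences. Elovl6 elongates palmitate. It was at 0.46, 0.60, and 0.71 with saline, at 1.10, 1.09, and 0.89 with E3 at 24 hr, and at 1.66, 1.72, and 2.04 with E2 at 24 hr. The groups did not overlap, and the E2 rise was 2.33-fold (1.22 ± 0.15, limma adjusted p = 2.35e-05).

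Fads2 and Fads1 desaturate polyunsaturated fatty acids. Fads2 was at -0.81, -0.96, and -0.88 with saline, at -0.27, 0.05, and -0.47 with E3 at 24 hr, and at 0.11, 0.30, and 0.25 with E2 at 24 hr, again without overlap. E2 raised it by 1.10 ± 0.12, and the E3 difference of 0.65 ± 0.12 was under 2-fold. Fads1 differed by 0.91 ± 0.13 with E2 and 0.68 ± 0.13 with E3, both under 2-fold with p-values below 0.001.

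The enzymes that make palmitate itself did not pass. Acly, which supplies cytosolic acetyl-CoA from citrate, differed by 0.61 ± 0.12 with E2 at 24 hr (limma adjusted p = 0.000763) and 0.15 ± 0.12 with E3. Its other, dim probe A_52_P373556 went the other way with E2 (-0.63 ± 0.15), and the mean of both was -0.01. Acaca, which makes malonyl-CoA, differed by 0.69 ± 0.27 with E2, and Fasn, fatty acid synthase, by 0.33 ± 0.19 (95% interval -0.08 to 0.75). Acss2, which activates acetate, differed by 0.75 ± 0.19 and Scd2, a stearoyl-CoA desaturase, by 0.36 ± 0.14. Me1, which supplies NADPH, had the largest difference of the branch at 1.36 ± 0.37, with levels of -0.91, -1.03, and -0.11 on saline arrays and 0.62, 0.65, and 0.76 with E2. All its E2 arrays were above saline, but its p-value of 0.00309 missed the limit, and Me1 passed it when the E2 2 hr arrays were left out of the fit.

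Scd1, the desaturase abundant in fat, spread widely within groups. Its levels were 2.24, 1.95, and 3.33 with saline, 1.54, 1.62, and 2.97 with E2 at 2 hr, and 1.94, 3.60, and 3.28 with E3 at 2 hr. At 24 hr they were 1.38, 1.95, and 1.97 with E2 and 3.20, 2.49, and 0.80 with E3. No group stood apart. On the same arrays the summed level of 9 fat markers, led by Cfd, Fabp4, and Car3, was 76.3, 21.3, and 110 with saline, 60.4, 34.2, and 60.6 with E2 at 2 hr, and 36.3, 97.6, and 63.5 with E3 at 2 hr. It was 14.99, 14.57, and 22.9 with E2 at 24 hr and 81.4, 40.1, and 15.2 with E3 at 24 hr. In each of the 5 groups the array with the most fat marker signal had the highest Scd1, although in the E2 2 hr group replicates 1 and 3 were nearly level in fat signal. By limma 0 of 9 fat markers were called with E2 at 24 hr, where 6.92% of all probes were called higher and 11.2% lower. Of the 9, 8 had an unadjusted limma p-value below 0.05 (65% of all probes), and their median difference was -1.85 over all 9. The part of fat in the Scd1, Fasn, and Me1 levels was not tested.

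**Figure D2:**
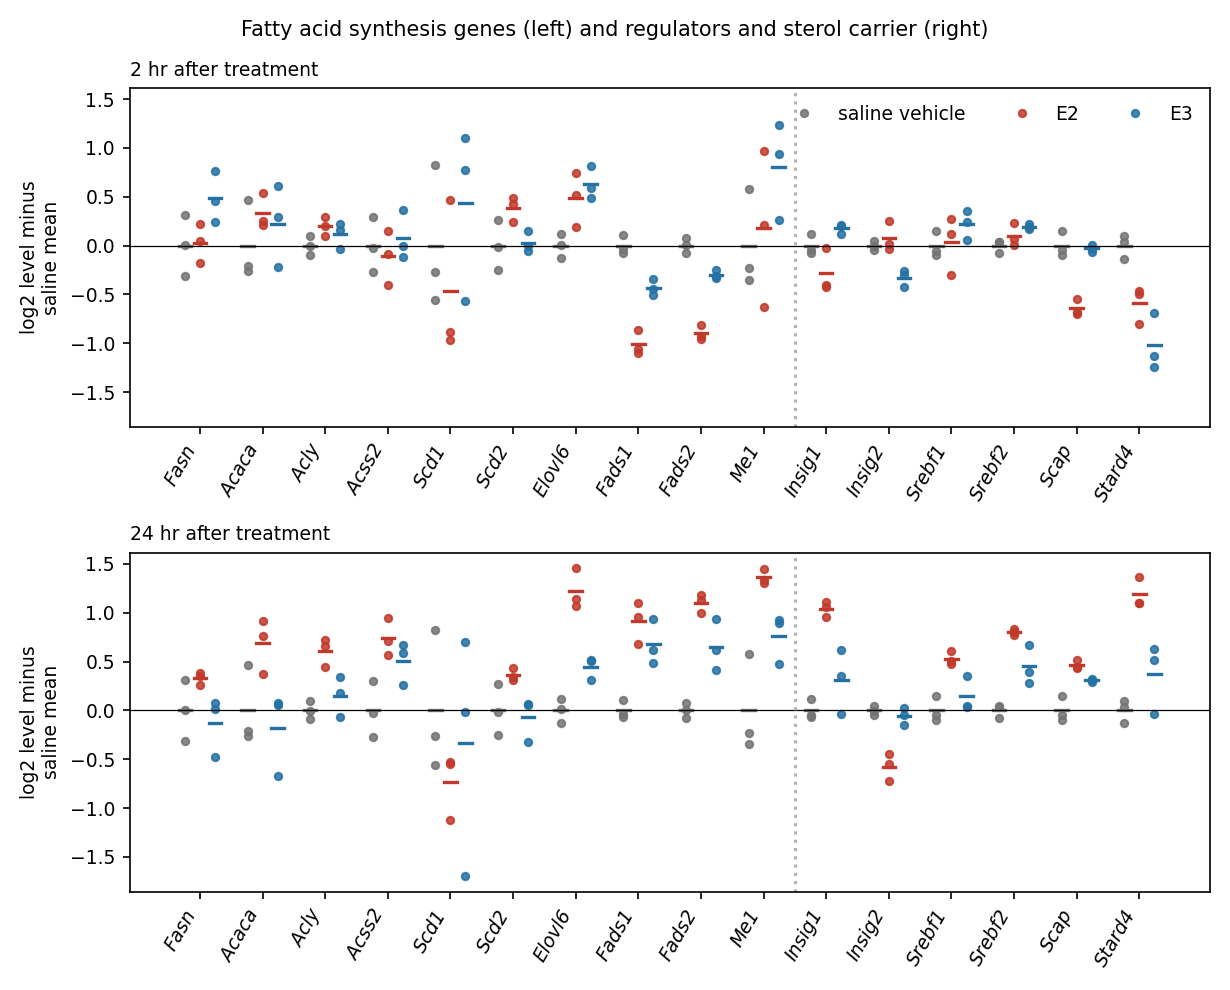
Log2 level minus the saline mean (vertical axis) of 10 fatty acid genes and, right of the dotted line, 6 regulators and carriers (horizontal axis) at 2 hr (top) and 24 hr (bottom). Dots are single arrays, 3 per group, and bars are group means. The E2 bars of Elovl6, Fads2, Me1, Insig1, and Stard4 lie above 2-fold at 24 hr, Me1 without being called, and the Scd1 dots spread widely.

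Markers of the cell types of the uterus were read on the same arrays. The summed level of the epithelial markers Krt8, Krt18, Krt19, Cdh1, Tacstd1, and Foxa2 was 71.0 to 97.0 on saline arrays, 116 to 125 with E3 at 24 hr, and 148 to 158 with E2 at 24 hr, and was 48.8 to 69.4 at 2 hr. All 6 were well above background on every array. Krt8 (1.49), Krt19 (1.37), and Cdh1 (1.02) were called higher with E2 at 24 hr, 3 of 6 against 6.92% of all probes, and by limma 0 of 6 were called with E3, against 1.84% higher and 1.98% lower of all probes, with 6 of 6 at an unadjusted p-value below 0.05 (44.4% of all probes). The 6 did not share a pattern. Foxa2, the gland factor, was lower than saline on every array of both compounds at 24 hr (-0.91 ± 0.25 with E2 and -0.71 ± 0.25 with E3, not called), and Krt18 differed by 0.03 ± 0.15 between E3 and E2. The summed level of 6 stromal markers was 164.9 to 209.6 with saline, 217.6 to 237.1 with E2, and 241.8 to 271.6 with E3 at 24 hr, with Col1a1 called higher with both compounds. The 6 stromal markers did not share a direction either. With each compound 3 of them were above saline and 3 below, with medians of 0.08 with E2 and 0.32 with E3. The summed level of 5 smooth muscle markers was 245.2 to 285.4, 325.3 to 355.9, and 339.3 to 414.9, with Des called higher with E2, so that on every 24 hr array of either compound these sums were also above saline. The median of the sterol branch was 1.54 with E2 and 0.83 with E3. The part of these cell types in the sterol rise was not tested.

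**Figure D3:**
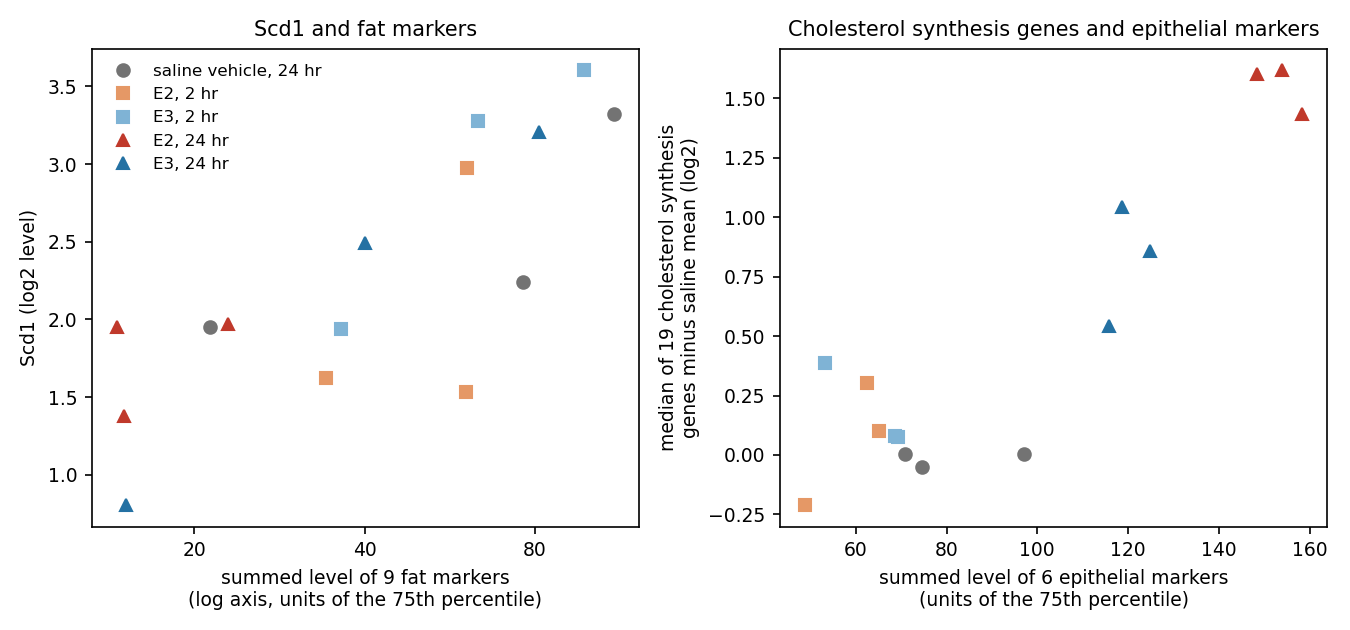
Left, Scd1 log2 level (vertical axis) against the summed level of 9 fat markers (horizontal axis, log scale). Right, median difference from the saline mean of the 19 sterol branch enzymes (vertical axis, log2) against the summed level of 6 epithelial markers (horizontal axis). Points are single arrays. On the right the E2 24 hr arrays lie at 148 to 158, the E3 24 hr arrays at 116 to 125, and the rest at 48.8 to 97.0.

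With E3 at 24 hr 7 members were called higher and 0 lower, all 7 in the sterol branch by the brightest probe (Mvk, Mvd, Idi1, Fdps, Sqle, Cyp51, and Tm7sf2), against 1.84% of all probes called higher. The branch medians were 0.83 for the sterol enzymes, 0.30 for the fatty acid genes, and 0.31 for the regulators, beside -0.01 for all probes. Nsdhl (0.96 ± 0.19), Sc4mol (0.88 ± 0.19), Fdft1 (0.83 ± 0.15), Ebp (0.79 ± 0.09), Pmvk (0.71 ± 0.08), and Hmgcs1 (0.62 ± 0.14) had p-values below 0.001 without reaching 2-fold. With that p-value alone 16 of 35 members passed, against 15.9% of all probes. Of the other probes 8 of 35 were called with E3, 4 of them where the brightest was not, namely 2 of Stard4 (1.38 ± 0.16 and 1.38 ± 0.18) and 2 of Nsdhl (1.08 ± 0.12 and 1.09 ± 0.16), and with the mean over its probes Stard4 was called (1.04, against 0.37 for the brightest). Sc5d (0.48), Dhcr7 (0.51), and Hsd17b7 passed neither limit with E3, although E2 raised them. The levels of Hsd17b7 were -2.07, -2.13, and -2.02 with saline, -2.23, -1.76, and -2.64 with E3, and -0.93, -0.82, and -0.63 with E2. Its E3 arrays lay around the saline arrays and all below the E2 arrays, with a difference from saline of -0.14 ± 0.18 (95% interval -0.53 to 0.26).

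E3 differs from E2 by an additional hydroxyl group on the steroid D ring, and both were given at 250 ng, so the compounds were set against each other directly at each time, in 2 comparisons. At 24 hr, 8 members were lower with E3 and 0 higher, all 8 of the sterol branch, against 2.07% of all probes called lower. The branch median of the E3 minus E2 difference was -0.86, against -0.45 for the fatty acid genes, -0.37 for the regulators, and 0.06 for all probes. The largest differences were those of Sqle (-1.79 ± 0.25, limma adjusted p = 0.000209), Idi1 (-1.66 ± 0.21, limma adjusted p = 0.000131), and Fdps (-1.65 ± 0.13, limma adjusted p = 7.95e-06). Mvd (-1.49 ± 0.21), Hsd17b7 (-1.41 ± 0.18), Sc4mol (-1.28 ± 0.19, not called with only the E3 and E2 24 hr groups fitted), Mvk (-1.19 ± 0.17), and Cyp51 (-1.15 ± 0.16) followed, so that E3 levels of these 8 were 2.22- to 3.46-fold below E2.

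Every array with E3 was below every array with E2 at 24 hr for 29 of the 35 members, against 21.9% of all probes. Every E3 array was above for 1 member, Insig2 (0.52 ± 0.10), against 29.4% of all probes. With a p-value below 0.001 alone 16 members passed, against 18.7% of all probes. Among the enzymes called with E2, the smallest differences between the compounds were those of Tm7sf2 (-0.36 ± 0.11, 95% interval -0.59 to -0.13) and Pmvk (-0.42 ± 0.08, 95% interval -0.59 to -0.24). The differences for Fads1 (-0.24, 95% interval -0.53 to 0.05), Acss2 (-0.24, 95% interval -0.66 to 0.17), and Scd1 (0.40, 95% interval -0.98 to 1.77) had intervals that include 0, and for Scd1 the interval spans more than 2-fold on the E3 side. Other probes of the called genes gave 6 of 6 differences in the same direction and 6 of 6 called. For Lss they gave -1.47 ± 0.17 and -1.61 ± 0.16, where the brightest probe gave -0.50 ± 0.20. All E3 arrays of 24 hr were on 1 slide and the E2 arrays of 24 hr on 2 others, and the compounds and their slides cannot be told apart. Normexp background correction moved the median of all probes for this comparison from 0.06 to 0.44, and the 8 members stayed called and lower under it.

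**Figure D4:**
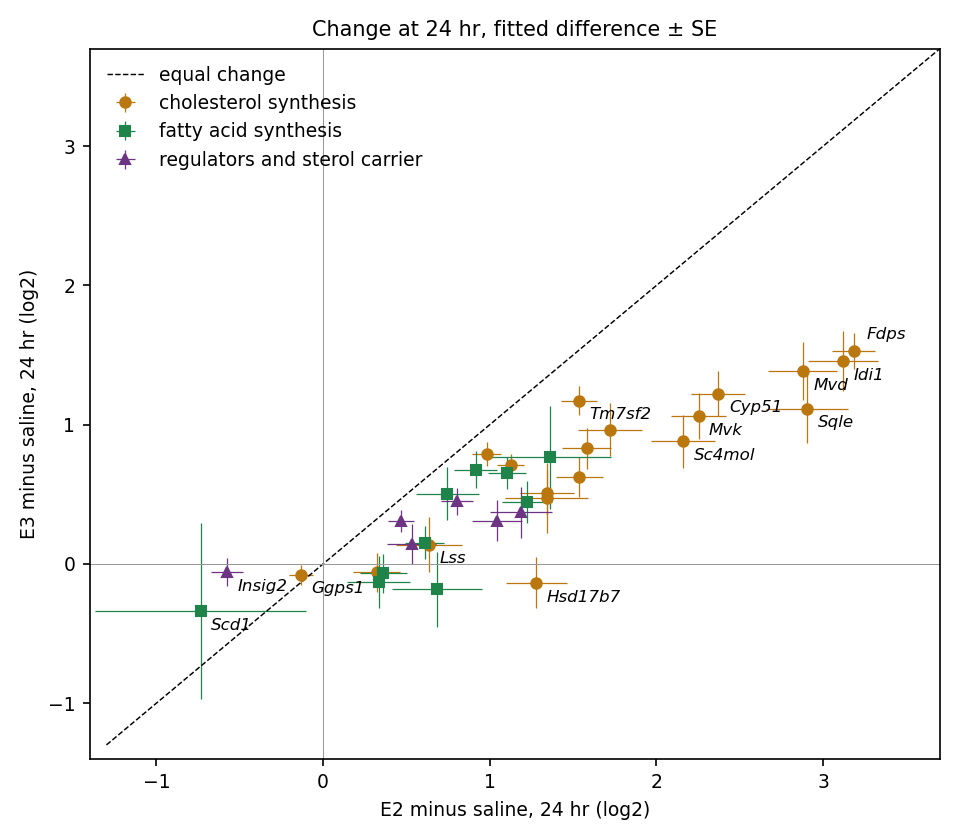
Fitted log2 difference from saline at 24 hr with E2 (horizontal axis) and E3 (vertical axis) for 35 genes, with bars of ± SE. Both axes use the same 3 saline arrays, and the dashed line marks equal change. Most sterol enzymes lie below the line, with Fdps at 3.18 and 1.53, while Tm7sf2 at 1.53 and 1.17 lies close to it and Hsd17b7 at 1.28 and -0.14 far from it.

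At 2 hr the sterol enzymes lay on both sides of saline. With E2 at 2 hr 3 members were called, Fdft1 higher, and Mvk and Fads1 lower, against 10.7% of probes called higher and 10.5% lower. With E3 at 2 hr 2 were called, Fdft1 higher and Stard4 lower, against 4.68% higher and 9.1% lower. The median of the sterol branch was -0.03 with E2 and 0.20 with E3, beside -0.07 and -0.11 for all probes. With the mean over the probes of each gene the E2 median was 0.37. Leaving out each array in turn gave sterol medians of -0.11 to 0.20 with E2 and 0.10 to 0.29 with E3. Of the 19 enzymes, 8 were above saline with both compounds, 7 were below with both, and 4 differed in sign. Both comparisons share the saline arrays. By the brightest probes, the shares of members called were below those of all probes in each direction. With a p-value below 0.001 alone, 10 of 35 members passed with E2 against 41.1% of all probes, and 6 of 35 with E3 against 30.1%.

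The brightest and the other probes of a gene often gave different calls at 2 hr. With E2, 10 of 35 other probes were called, where 10.7% of all probes were called higher and 10.5% lower. For 8 of them the brightest probe was not called, among them probes of Hmgcs1 (A_52_P119039, 1.41 ± 0.21), Srebf2 (A_52_P665742, 1.48 ± 0.16), and Insig2 (A_52_P923173, -2.77 ± 0.29). With E3, 2 of 35 other probes were called, where 4.68% of all probes were called higher and 9.1% lower. For both the brightest probe was not called, and they were of Insig2 (A_52_P923173, -2.39 ± 0.29) and Nsdhl (A_51_P146701, lower). By limma 0 of the 3 other probes of Fdft1 and Stard4 were called or had an unadjusted p-value below 0.05.

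Fdft1 commits farnesyl diphosphate to sterols. It was at -0.09, -0.09, and 0.01 with saline, at 0.86, 1.15, and 1.18 with E2 at 2 hr, and at 1.14, 0.93, and 0.82 with E3 at 2 hr. The estrogen arrays overlapped each other and not saline, with differences of 1.12 ± 0.15 (limma adjusted p = 3.47e-05) and 1.02 ± 0.15 (limma adjusted p = 0.000113). At 24 hr Fdft1 was at 1.37, 1.56, and 1.64 with E2 and at 0.80, 1.06, and 0.46 with E3, so that the E3 arrays of 24 hr overlapped those of 2 hr.

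Ggps1 stood above saline at 2 hr and not at 24 hr. It was at 0.40, 0.36, and 0.29 with E2 at 2 hr and at 0.56, 0.43, and 0.40 with E3 at 2 hr, all above the saline range of -0.45 to -0.29. The differences of 0.72 ± 0.07 (limma adjusted p = 3.8e-06) and 0.83 ± 0.07 (limma adjusted p = 2.13e-06) were under 2-fold. Sqle (1.02 ± 0.25 with E2 and 0.95 ± 0.25 with E3), Cyp51 (0.80 ± 0.16 and 0.91 ± 0.16), Idi1 (0.81 ± 0.21 and 0.87 ± 0.21), and Sc5d (0.90 ± 0.25 and 0.71 ± 0.25) were above saline on every array of both compounds at 2 hr, but none of them passed both limits. The E2 value of Sc5d was 0.51 without E2 2 hr replicate 3 and 1.19, and called, without replicate 1.

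Mvk was at -2.25, -2.78, and -2.46 with E2 at 2 hr and at -2.19, -2.11, and -2.10 with E3 at 2 hr, all below the saline range of -1.49 to -1.33. The differences were -1.07 ± 0.17 (limma adjusted p = 0.000121) and -0.71 ± 0.17, the latter under 2-fold. The E2 difference also went under it with quantile normalization (-0.96), without scaling (-0.99), and without E2 2 hr replicate 2 (-0.93). Mvk therefore lay below saline at 2 hr and above it at 24 hr with either compound. Tm7sf2 (-0.76 ± 0.11 with E2 and -0.62 ± 0.11 with E3), Lss (-0.81 ± 0.20 and -0.71 ± 0.20), and Pmvk (-0.38 ± 0.08 and -0.55 ± 0.08) were also below saline on every array at 2 hr without passing both limits. The other probes of Lss differed by -0.61 ± 0.17 and 0.02 ± 0.16 with E2 and by 0.20 ± 0.17 and 0.04 ± 0.16 with E3, so that the E3 value rests on the brightest probe.

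Stard4 was at -0.70, -0.39, and -0.36 with E2 at 2 hr and at -1.02, -1.13, and -0.59 with E3 at 2 hr, below all saline arrays. The E3 difference of -1.02 ± 0.19 (limma adjusted p = 0.000621) was not matched by the other probes, which gave -0.01 and -0.03. With E2 the brightest probe gave -0.59, not called, and the value was -0.97 to -0.48 under the alternatives. The other probe A_52_P561205 of Stard4 was called higher with E3 than with E2 at 2 hr. Its probes therefore differ on which compound gave the lower level. Fads1 was at -0.57, -0.80, and -0.75 with E2 at 2 hr against 0.23, 0.27, and 0.41 with saline, without overlap, a difference of -1.01 ± 0.13 (limma adjusted p = 3.04e-05) that went under 2-fold without scaling (-0.93) and without E2 2 hr replicate 2 (-0.96), E2 2 hr replicate 3 (-0.98), or saline replicate 3 (-0.96). With E3 it was at -0.14, -0.04, and -0.21, also below saline, by 0.43 ± 0.13 on the log2 scale.

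Slide 4 held saline replicate 3 and all 3 E3 2 hr arrays. Against that saline array alone Fdft1 differed by 0.96, Stard4 by -1.06, Ggps1 by 0.83, and Mvk by -0.69. With slide as a fixed block Fdft1 (limma adjusted p = 0.0173) and Stard4 (limma adjusted p = 0.0397) had those differences and were not called. The count with E3 at 2 hr was 0 without E3 2 hr replicate 1 and 1 without saline replicate 2, and the count with E2 at 2 hr was 1 without E2 2 hr replicate 2.

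E3 and E2 were also compared directly at 2 hr. By limma 0 of 35 members were called, where 7.51% of all probes were, while 13 had an unadjusted p-value below 0.05 (51.4% of all probes) and 7 an adjusted one (43.4%). The 5 members with p-values below 0.001, against 22.7% of all probes, were Scap (0.61 ± 0.08), Fads2 (0.60 ± 0.12), Fdps (0.61 ± 0.13), and Fads1 (0.58 ± 0.13), higher with E3, and Acat2 (-0.75 ± 0.14), lower with E3. For 32 of 35 members the 95% interval of the difference lay within 2-fold, with Acat2, Me1, and Scd1 as the exceptions. The other probe A_52_P561205 of Stard4 was called higher with E3 (1.35 ± 0.16), where the brightest probe gave -0.43 ± 0.19. The strain, scanner, and slides of the E2 2 hr arrays stand with the compound in each of these values.

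The 24 hr arrays were also set against those of 2 hr. With E3 both times share the strain label and the scanner, but no slide held both times, so that time and slide cannot be told apart, and 9 members were higher at 24 hr and 0 lower, against 9.64% of probes called higher. They were Tm7sf2 (1.80 ± 0.11), Mvk (1.77 ± 0.17), Nsdhl (1.34 ± 0.19), Fdps (1.27 ± 0.13), Pmvk (1.26 ± 0.08), Mvd (1.23 ± 0.21), Ebp (1.01 ± 0.09), Stard4 (1.39 ± 0.19), and Fads1 (1.11 ± 0.13). Ebp fell under 2-fold with normexp (0.90), with quantile normalization (0.91), without scaling (0.94), and without E3 2 hr replicate 1 (0.95) or E3 24 hr replicate 2 (0.99), and Fads1 without E3 24 hr replicate 2 (0.98). With E2, 19 were higher and 0 lower, against 13.6% of probes, with Fdps (3.53 ± 0.13), Mvk (3.32 ± 0.17), and Mvd (3.23 ± 0.21) the largest. Fads2 (2.00 ± 0.12) and Fads1 (1.92 ± 0.13) stood out in the fatty acid branch, and Scap (1.11 ± 0.08), Insig1 (1.32 ± 0.15), and Stard4 (1.78 ± 0.19) among the regulators. The E2 values contain the change of strain, scanner, and slide.

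Genes next to the pathway were read from lists of 4 kinds. Of 12 tested genes of sterol export, storage, and transport, 4 were called lower with E2 at 24 hr and 0 higher, against 11.2% of probes called lower. They were Abca1, the cholesterol exporter (-1.61 ± 0.14), Nr1h3, the oxysterol receptor LXRα (-1.03 ± 0.21), Mylip, an E3 ubiquitin ligase of lipoprotein receptors (-1.08 ± 0.10), and Cyp27a1, which hydroxylates cholesterol (-1.21 ± 0.14). By limma 0 of 12 were called with E3 at 24 hr, where 1.84% of all probes were called higher and 1.98% lower, with 7 at an unadjusted p-value below 0.05, against 44.4%. Abca1 (1.25 ± 0.14) and Cyp27a1 (1.12 ± 0.14) were called higher with E3 than with E2, 2 of 12 against 2.78% of all probes. The list median with E2 was -0.06, beside -0.07 for all probes. At 2 hr Abcg1, another sterol exporter (-1.45 ± 0.29), Nr1h3 (-1.27 ± 0.21), and Mylip (-1.55 ± 0.10) were called lower with E2, 3 of 12 against 10.5% of all probes, and Mylip (-1.32 ± 0.10) with E3, 1 of 12 against 9.1%.

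Of 19 genes of fatty acid activation, storage, and oxidation, Elovl1 (1.18 ± 0.13) and Acsl5 (1.12 ± 0.13) were called higher with E2 at 24 hr, 2 of 19 against 6.92% of all probes. By limma 0 were called with E3 at 24 hr, with 10 at an unadjusted p-value below 0.05, against 44.4% of all probes. At 2 hr the same list held Pparg, the adipogenic nuclear receptor, higher by 3.60 ± 0.23 with E2 and 3.04 ± 0.23 with E3, and Mlxipl, which encodes the glucose-responsive factor ChREBP, higher by 2.20 ± 0.26 and 1.90 ± 0.26. Acacb (-1.15) and Thrsp (-1.83) were lower with E2 at 2 hr, so that 4 of 19 were called with E2 and 2 of 19 with E3, where 10.7% and 4.68% of all probes were called higher and 10.5% and 9.1% lower. Of 8 tested genes of prenyl use and 6 of SREBP processing, 0 were called by limma against saline with either compound at either time. Of all probes, 10.7% were called higher and 10.5% lower with E2 at 2 hr, and 4.68% and 9.1% with E3. At 24 hr these shares were 6.92% and 11.2% with E2 and 1.84% and 1.98% with E3. At an unadjusted p-value below 0.05 there were 6 genes of prenyl use and 4 of SREBP processing with E2 at 2 hr (65.3% of all probes), 5 and 3 with E3 at 2 hr (55.1%), 5 and 4 with E2 at 24 hr (65%), and 2 and 2 with E3 at 24 hr (44.4%).

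The genes whose pattern over the 15 arrays was most like the mean of the sterol branch, outside the members, were a transcript listed as NAP029862-1 (Pearson r = 0.99), Banf1 (0.98), Ppih (0.98), Sprr2e (0.98), and Psmd13 (0.98). Their differences from saline at 24 hr were 1.24, 1.18, 1.13, 2.85, and 1.26 with E2 and 0.48, 0.50, 0.43, 1.16, and 0.54 with E3. The arrays share groups and slides, so the correlations describe this set of arrays.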

How the data were processed

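The deposited scanner files, made with Agilent Feature Extraction 9.5.3.1 (9.5 in the submitters' processing notes), hold background-subtracted processed intensities on a linear scale; the deposited value table holds the same intensities (largest relative difference 0). Neither is normalized between arrays. The authors used one-color defaults. Array annotation is of build mm7, and promoters come from RefSeq GRCm38.p6.

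With R 4.3.3 and limma 3.58.1, control spots were dropped, spots with outlier flags set aside (1893 over 15 arrays), and spots of a probe averaged. Each array was scaled by its 75th percentile on the log2 scale. A probe was kept if 2 or more arrays of some group had it well above background (34765, 84.4%). Limma fitted 5 group means (residual degrees of freedom 10, prior 2.06), with 8 comparisons of groups. The fit was tested on simulated data. The members, lists, and naming rule (all 35 members, called genes of the lists, and the 5 most alike) were chosen with earlier results of these data known. The number of arrays limits the precision, and p-values measure the spread between single uteri as labeled, or of pools if the methods of the study apply to them. Alternatives were the background correction, 3 other scalings, the filter, the thresholds, the probe of a gene, the arrays in the fit, slide and replicate number as blocks, and leaving out each array.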

Additional observations from a re-analysis of the deposited data

Results flagged for a closer look

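The E3 response at 24 hr differed from the E2 response, by the direct test of E3 against E2, for 8 members. The log2 differences were -1.19 for Mvk, -1.49 for Mvd, -1.66 for Idi1, -1.65 for Fdps, -1.79 for Sqle, -1.15 for Cyp51 (not called without E3 24 hr replicate 3), -1.28 for Sc4mol (not called with only these groups fitted), and -1.41 for Hsd17b7. Groups of 3 arrays were not tested for outlying arrays, and no array was set aside in the main fit. The summed level of 6 pancreatic transcripts was 204 on E2 24 hr replicate 2, against 0.383 and 4.18 on the other E2 arrays of 24 hr. The 8 members stayed called without that array.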

How the results depend on the processing

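Of the 67 called member differences, 0 changed direction under any of 29 alternatives that could give them (45 of the 67 without the E2 2 hr arrays and 2 with slide as a fixed block). The counts of called members with E3 at 2 hr (2) were 1 under normexp background correction, 1 with the 75th percentile taken over probes detected on all arrays, 1 with the mean over the probes of a gene (Insig2, with Fdft1 and Stard4 both lost), and 0 with slide as a fixed block, which was added after seeing the data. With p below 0.001 and no minimum change, the counts were 10 with E2 at 2 hr, 6 with E3 at 2 hr, 16 with E3 at 24 hr, 5 for E3 against E2 at 2 hr, and 16 for E3 against E2 at 24 hr. With the mean over probes, the sterol median was 0.37 with E2 at 2 hr and 1.77 for E2 at 24 against 2 hr, and the fatty acid median was 0.49 with E2 at 24 hr and 0.33 for E2 at 24 against 2 hr. Without scaling, the sterol median for E2 at 24 against 2 hr was 1.47. The cause was not tested.

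Leaving out each array in turn gave 1 to 4 members called with E2 at 2 hr, 0 to 3 with E3 at 2 hr, 19 to 20 with E2 at 24 hr, 5 to 9 with E3 at 24 hr, 7 to 9 for E3 against E2 at 24 hr, and a sterol median of -0.027 to 0.116 for E3 against E2 at 2 hr. Cyp51 lost its E3 against E2 call without E3 24 hr replicate 3, and Sc4mol with only the compared groups fitted. The replicate number as a block changed no call (19 with E2 and 7 with E3 at 24 hr). Correlations of same-numbered deviations ran from -0.467 to 0.551 with 10 of 30 over 0.1. Those of differently numbered deviations ran from -0.512 to 0.629 with 17 of 60 over 0.1. The numbers were not taken to pair the samples. Slide as a random block (correlation -0.0138) changed no call. Normexp moved the median of all probes with E3 at 24 hr to 0.31.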
